A study of Mus musculus with 2 samples.

Results

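Natural killer (NK) cell and Fc receptors mostly lack signalling tails of their own and depend on small adaptor chains, and the genes of those adaptors, of the proteins next to them in the pathway and of 3 NK receptors outside the lectin families were measured in Bcl11b-deficient and wild-type naive CD8+ T cells. The 8 genes were Fcer1g, Tyrobp, Hcst, Clnk, Syk, Ncr1, Cd160 and Cd7, taken by their name in the scanner files, and 10 of 43379 gene spots on each array belonged to them. Fcer1g and Clnk had 2 probes each, the other genes 1, and each probe had 1 spot. In the knockout (KO), floxed Bcl11b alleles (Bcl11bF/F) are excised by dLck-iCre, a recombinase driven by the distal promoter of Lck, which switches on late during T cell development and is not restricted to CD8+ cells. Wild-type (WT) cells are labelled only as wild type, and both genotypes are on the C57BL/6 background. CD44low CD25low CD8+ T cells were sorted to a stated purity above 90%. Each of 2 two-colour Agilent arrays carried a KO sample in Cy5 and a WT sample in Cy3, which the labels call biological replicates. How many mice gave each sample, and their age, is not given in the sources used here. The p-values below rest on the spread between these 2 arrays, and how far that reflects the spread between mice is not known. For the results as reported, that spread was pooled over all 9281 tested genes, so a p-value does not reflect a gene's own spread.

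Fcer1g, the common gamma chain of Fc receptors, and Tyrobp (DAP12) each carry an immunoreceptor tyrosine-based activation motif (ITAM) in the tail. Once Src-family kinases phosphorylate it, the ITAM is bound by the kinase Syk or its T cell relative Zap70, which then phosphorylate linker proteins of the SLP-76 family, of which Clnk is one. Hcst (DAP10) has a different motif that recruits phosphatidylinositol 3-kinase and serves the receptor NKG2D. Resting conventional T cells use the CD3 chains and Zap70 for this purpose, whereas NK and myeloid cells use Fcer1g, Tyrobp and Syk.

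The members were chosen with earlier results of these data known, so their counts describe these arrays and are set beside the share over all genes. A log2 ratio below is KO over WT on 1 array, after background correction and loess normalisation, which sets each spot against spots of like brightness. KO was in the red channel on both arrays, and a probe's dye bias and the genotype cannot be told apart. On the 2 arrays, 17276 and 10955 gene spots were well above background by the scanner software's test in KO and 10739 and 13446 in WT. The precision of each value is limited by there being 2 arrays. The arrays differed in spread, with 2504 of 9281 tested genes past 2-fold in either direction on array 1 and 263 on array 2. The Y-linked genes Eif2s3y and Ddx3y passed the background test in KO on array 1 only and in WT on array 2 only, and 3 probes of Xist were well above background in KO on array 2 only. The Y-linked ratios thus had opposite signs on the 2 arrays, with Eif2s3y at 1.99 and -2.98. None of the 8 genes lies on a sex chromosome, and the part of sex in their ratios was not tested. Negative control spots had median signals of 985 and 1865 in KO and 1087 and 1120 in WT, in the scanner's units.

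The deleted gene was checked first. The brighter Bcl11b probe had signals of 5693 and 8874 in KO and 4373 and 11865 in WT, and log2 ratios of -1.45 on array 1 and -1.73 on array 2 (mean -1.59 ± 0.19, SD, n = 2). Its adjusted p was 0.0747 (limma, Benjamini-Hochberg), short of the threshold of 0.05. It passed with no background subtraction (limma adjusted p = 0.040) and when the variance was allowed to follow brightness (limma adjusted p = 0.043), and in no other setting. On array 1 the uncorrected signal was 1.30 times as high in KO as in WT; the ratio after background correction was 0.48 and the loess curve at that brightness stood at 1.93. With each array centred on its median the array 1 ratio was -0.04. A second Bcl11b probe had signals of 3900 and 2667 in KO and 1932 and 4740 in WT. Its log2 ratios were -0.35 and -2.32 (mean -1.34 ± 1.39, SD, n = 2), and on array 1 its uncorrected signal was 2.02 times as high in KO as in WT. Neither probe was placed against the floxed exon.

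Of the 7 members tested, 4 rose in KO, none fell and 3 did not pass, against 1.24% of all tested genes called higher and 0.248% called lower. The 4 were Fcer1g, Tyrobp, Cd7 and Clnk. With Cd160, they made 5 of 7 members past 2-fold higher on both arrays, against 1.12% of all tested genes. Every one of these 5 had a KO signal above its WT signal on both arrays, as the plot of unnormalised signals shows. This adds no support, because the loess curve stood above 0 at each of these probes on both arrays. The unnormalised signals of Hcst and Ncr1, which were not called, had the same order. The remaining 2 tested members, Hcst and Ncr1, had ratios of opposite sign on the arrays, and Syk was not well above background in any sample. At the level of probes, 4 of 10 (both of Fcer1g, 1 of Clnk and that of Cd160) were well above background in KO on both arrays and in WT on neither, a pattern found in 0.459% of all gene probes. The filter for testing asked for a probe well above background on both arrays in 1 genotype, so Fcer1g, Clnk and Cd160 were tested only through KO. In sorted bulk samples, more cells of a type and more RNA per cell cannot be told apart. All 4 calls were lost, with 0 genes called by limma, when the arrays' log ratios were brought to equal spread, when the scanner software's log ratio was used, or when no filter on dim probes was applied. In these fits 5 members had an unadjusted p under 0.05, against 9.75%, 6.2% and 8.98% of all genes tested. The mean for Fcer1g was 5.12 with equal spread and 6.85 by the scanner software's log ratio, against 4.76 as reported. That for Tyrobp was 3.12 and 3.32, against 2.73. Equal spread lowered the Fcer1g ratio on array 1 to 3.07 and raised it on array 2 to 7.17. Leaving out the filter does not alter the ratios of these probes, so their means there are the reported ones and add no support.

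**Figure D1:**
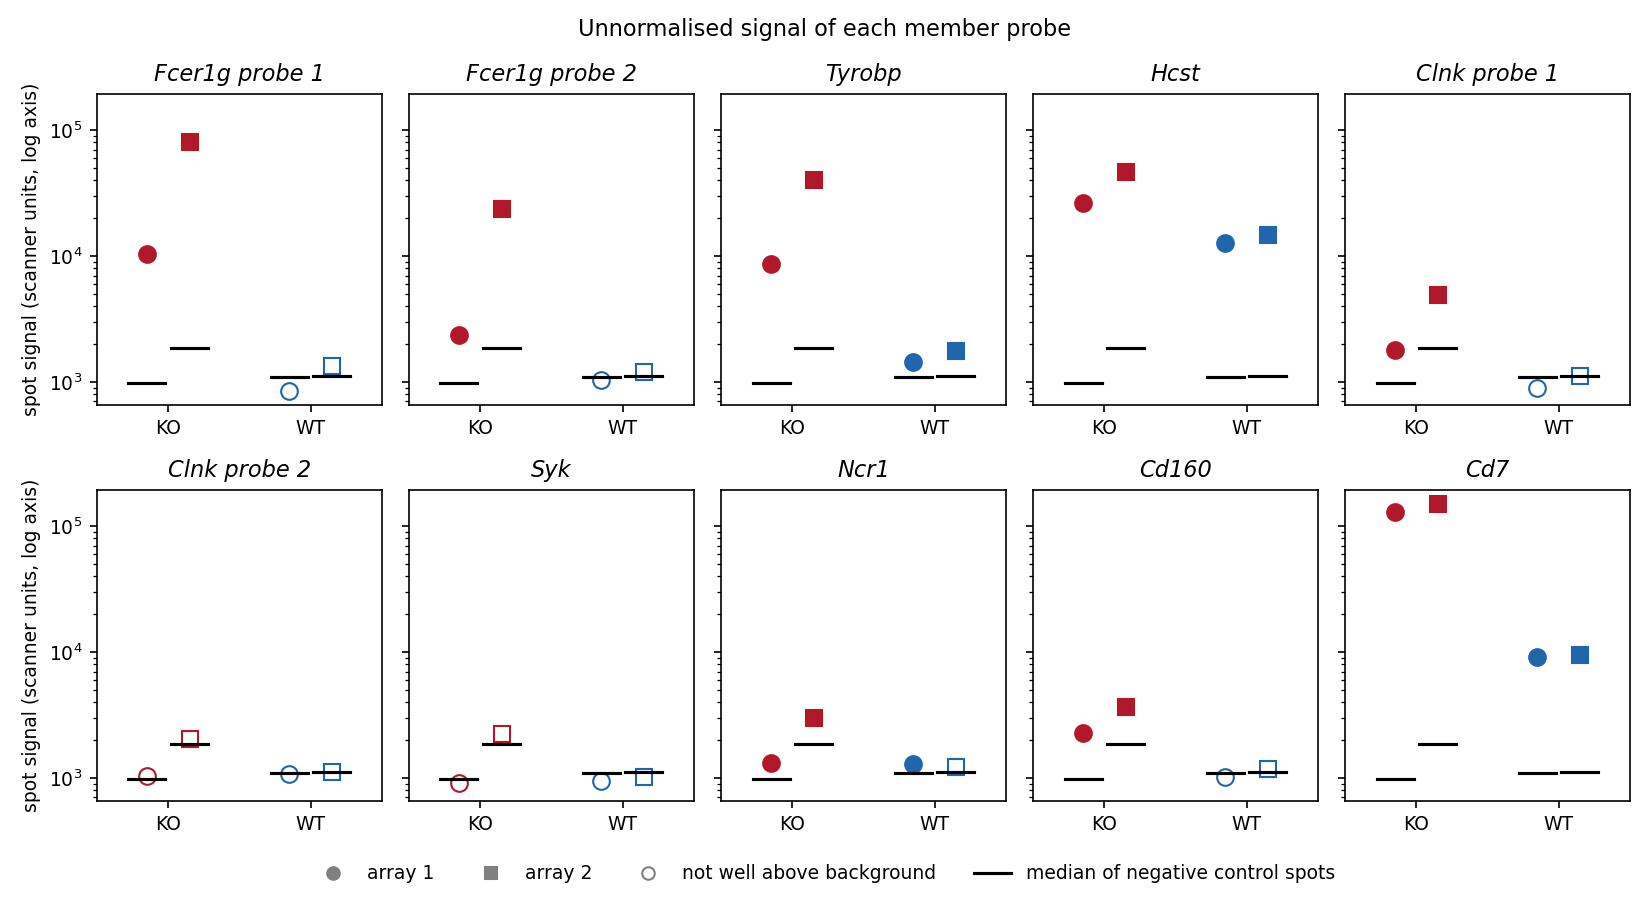
Unnormalised spot signals (scanner units, log axis) of the 10 member probes in KO (red) and WT (blue) on array 1 (circles) and array 2 (squares); open symbols were not well above background and black bars are the medians of the negative control spots. Fcer1g, Clnk probe 1 and Cd160 stand clear of the negative controls in KO only, Cd7 and Hcst in both genotypes, and Clnk probe 2 and Syk lie near the controls everywhere.

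The sequence upstream of the start site is shown for Fcer1g and Clnk, which were high on both arrays, and for Hcst, which was not. The 250 bases before the annotated start are given 5′ to 3′ on the gene's strand from RefSeq (GRCm38.p6), which held windows for 6 of the 8 members and not for Tyrobp and Cd7. The windows are chr1:171234350-171234599 on the minus strand for Fcer1g, chr5:38876694-38876943 on the minus strand for Clnk and chr7:30419855-30420104 on the minus strand for Hcst. Capitals mark matches, on either strand, to AGGAAG (1 of the words bound by ETS factors), TGTGGT (the core bound by RUNX factors) and AGGTGT (a T-box half-site). Only these exact words are marked and counted, and other forms of the sites are not.
Fcer1g: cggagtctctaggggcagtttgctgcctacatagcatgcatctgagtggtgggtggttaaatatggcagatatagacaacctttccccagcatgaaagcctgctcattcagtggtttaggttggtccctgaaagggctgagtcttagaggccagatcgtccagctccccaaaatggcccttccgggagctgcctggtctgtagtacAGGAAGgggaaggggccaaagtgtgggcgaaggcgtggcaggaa
Clnk: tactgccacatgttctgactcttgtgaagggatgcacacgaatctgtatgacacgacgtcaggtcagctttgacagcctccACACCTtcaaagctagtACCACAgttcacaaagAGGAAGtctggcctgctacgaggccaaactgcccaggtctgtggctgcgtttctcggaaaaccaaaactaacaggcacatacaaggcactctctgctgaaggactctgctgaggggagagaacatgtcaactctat
Hcst: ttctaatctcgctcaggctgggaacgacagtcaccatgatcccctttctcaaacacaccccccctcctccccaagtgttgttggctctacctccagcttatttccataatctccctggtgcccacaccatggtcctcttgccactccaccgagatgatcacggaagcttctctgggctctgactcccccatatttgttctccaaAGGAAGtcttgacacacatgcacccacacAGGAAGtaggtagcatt
None of the marked matches overlaps another. Fcer1g had 1 ETS match, from 44 to 39 bases before the start. Clnk had 1 ETS match at 136 to 131 bases, with 1 RUNX match at 152 to 147 and 1 T-box match at 169 to 164 before the start. Hcst had 2 ETS matches, from 46 to 41 and from 17 to 12 bases before the start. Of the members not shown, both windows of Cd160 held 1 ETS match and 1 RUNX match. Both windows of Ncr1, which overlap, held 0 ETS matches and 2 RUNX matches. The windows of Syk held 0 ETS and 0 RUNX matches, and 1 of them held 1 T-box match. Neither Cd160 nor Ncr1 had a T-box match. Over all 32851 windows of the same length, 29.5% held the ETS word, 14.0% the RUNX word and 11.8% the T-box word. These matches are letters in a window and say nothing of binding in these cells.

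Fcer1g had the highest mean ratio of the members and ranked 2nd of 9281 genes. Its brighter probe (mm8, chr1:173066338-173066397, minus strand) had signals of 10388 and 80080 in KO, against 852 and 1324 in WT. The KO signals lie well over the negative controls and the WT signals near them, so the groups do not overlap and the WT level is only bounded. The log2 ratios were 3.95 on array 1 and 5.58 on array 2 (mean 4.76 ± 1.16, SD, n = 2; limma adjusted p = 4.98e-18). Set against the lowest signal well above background in WT, Fcer1g was at least 20.9-fold higher in KO as a mean over the 2 arrays. The ratio on array 1 alone was smaller than that bound. A second probe, which overlaps the first (chr1:173066390-173066462, minus strand), had 2341 and 23719 in KO and 1039 and 1203 in WT. Its ratios were 1.45 and 4.14, at least 6.01-fold higher in KO as a mean over the arrays. On array 1 alone this probe also lay below its bound. It passed when every probe was tested on its own (limma adjusted p = 0.0177). The probes therefore gave the same direction on both arrays and differed in size, most on array 1.

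Tyrobp, the adaptor of activating Ly49 and other NK and myeloid receptors, had signals of 8704 and 40587 in KO and 1438 and 1744 in WT. Its probe is annotated on mm8 at chr7:30124392-30126119, plus strand, a span of 1728 bases. All 4 signals were well above background, and both KO signals exceeded both WT signals, although the WT signals lay close over their negative controls. The log2 ratios were 1.52 and 3.94 (mean 2.73 ± 1.71, SD, n = 2; limma adjusted p = 2.84e-05). Array 2 carried more of the change: Tyrobp ranked 4th of all genes there and 1022nd on array 1.

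Hcst, which encodes DAP10, is the next protein-coding gene to Tyrobp on chromosome 7 and is annotated on the opposite strand (mm8, chr7:30126581-30126881). Its signals were 26354 and 46548 in KO and 12602 and 14811 in WT, all well above background. The unnormalised KO signals were thus 2.09 and 3.14 times the WT signals, but spots of that brightness were brighter in Cy5 throughout. After background correction the Hcst log2 ratio was 1.11 on array 1, where the loess curve stood at 2.00, and 1.68 on array 2, where it stood at 1.37. The normalised ratios were -0.89 and 0.31 (mean -0.29 ± 0.85, SD, n = 2; limma adjusted p = 0.935). With median centring the mean was 0.70, at about the level of the median gene (0.68 under that setting and 0.04 as reported). The Tyrobp ratio exceeded that of its neighbour Hcst by 2.42 on array 1 and 3.63 on array 2 on the log2 scale, a difference for which no test was run.

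Clnk, a SLP-76 family linker also called MIST and known from NK and mast cells, rose in KO by 1 of its 2 probes. That probe, for which the array design lists 20 bases on mm8 (chr5:38994711-38994730, minus strand), had signals of 1785 and 4911 in KO and 885 and 1117 in WT. The KO signals were well above background on both arrays and the WT signals on neither. Its log2 ratios were 2.02 and 2.03 (mean 2.03, SD 0.0051, n = 2; limma adjusted p = 0.00687) and it was at least 2.32-fold higher in KO. Clnk was not called with no background subtraction (mean 1.12, limma adjusted p = 0.13) or with median centring (1.97, limma adjusted p = 0.12). The other Clnk probe (chr5:39056324-39056383, minus strand) had 1037 and 2038 in KO and 1078 and 1116 in WT. None of these was well above background, so that probe gives no fold.

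Syk, the kinase that binds phosphorylated ITAMs in NK, B and myeloid cells, had signals of 907 and 2234 in KO and 940 and 1008 in WT (mm8, chr13:52660724-52660783, plus strand). No sample was well above background, and Syk was not tested. Its level was therefore not measurable at this brightness in either genotype.

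Cd7, an immunoglobulin-superfamily receptor of T and NK cells, was bright in both genotypes and rose in KO. Its probe (mm8, chr11:120852844-120852903, minus strand) had signals of 128967 and 151458 in KO, against 9184 and 9444 in WT. The replicates of each genotype lay close together and the genotypes far apart. The unnormalised KO signals were 14.0 and 16.0 times the WT signals, of which the loess curve at that brightness took 2.04 and 1.43 on the log2 scale. The normalised log2 ratios were 1.87 and 2.66 (mean 2.26 ± 0.56, SD, n = 2; limma adjusted p = 0.00147), a 4.79-fold higher signal in KO; with median centring the mean was 3.30. Its ratio was higher than that of 93.4% of tested genes on array 1 and 99.8% on array 2.

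Cd160, a glycolipid-anchored receptor that binds the herpesvirus entry mediator Tnfrsf14, had signals of 2262 and 3626 in KO and 1013 and 1176 in WT (mm8, chr3:96891235-96894220, minus strand). Only the KO signals were well above background. The log2 ratios were 1.59 and 1.34 (mean 1.47 ± 0.18, SD, n = 2), at least 2.18-fold higher in KO, and did not pass the test over all genes (limma adjusted p = 0.126). Cd160 passed when the variance was allowed to follow brightness (limma adjusted p = 0.0035).

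Ncr1 encodes NKp46, the activating receptor that marks NK cells and related innate lymphocytes and signals through Fcer1g. Its probe (mm8, chr7:3947661-3947720, plus strand) had signals of 1302 and 2981 in KO and 1298 and 1217 in WT. The WT signal was well above background on array 1 only, and the KO signals on both arrays. On array 1 the genotypes were nearly equal and on array 2 KO was higher. The log2 ratios were -0.20 and 0.86 (mean 0.33 ± 0.74, SD, n = 2; limma adjusted p = 0.929), a spread larger than the mean.

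**Figure D2:**
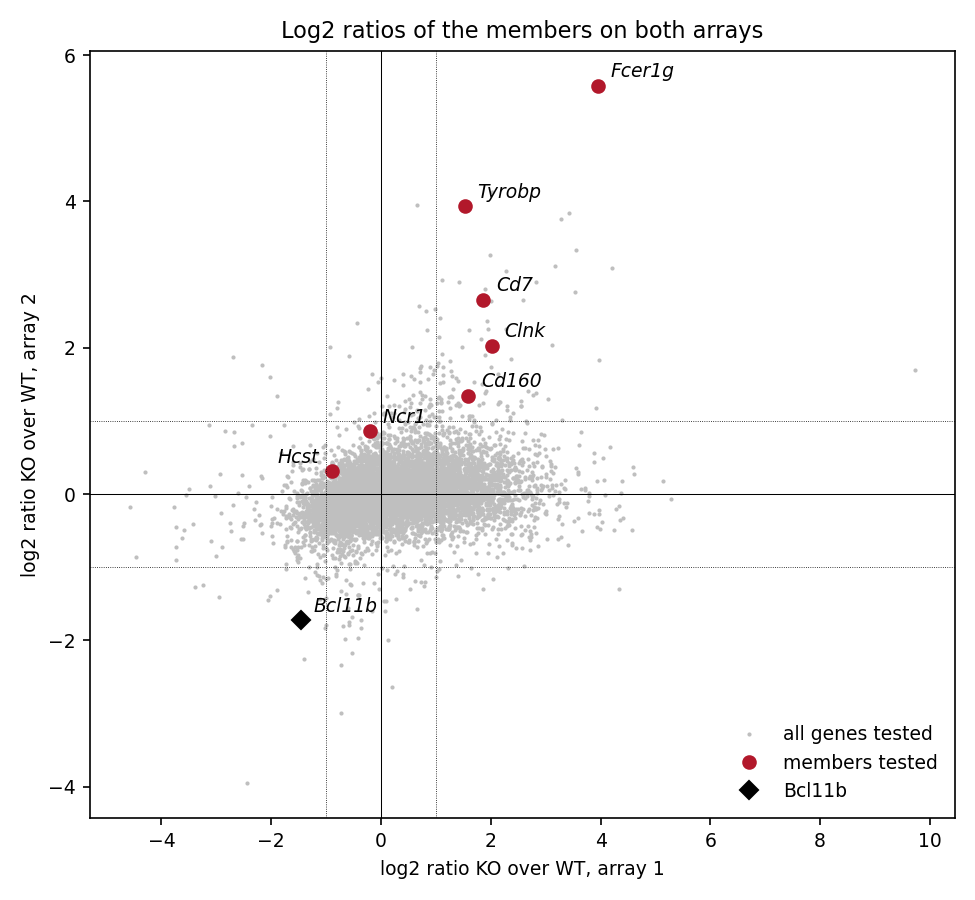
Log2 ratio of KO over WT on array 1 (x axis) and array 2 (y axis) for all 9281 tested genes (grey), the 7 tested members (red) and Bcl11b (black); dotted lines mark 2-fold. Fcer1g, Tyrobp, Cd7, Clnk and Cd160 lie past 2-fold higher on both arrays, Hcst and Ncr1 near the bulk of genes, and the brighter Bcl11b probe past 2-fold lower on both.

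The 4 members called higher in KO kept that direction on both arrays, but the sizes were not alike. Clnk and Cd160 gave nearly the same ratio on each array, while Fcer1g, Tyrobp and Cd7 were higher on array 2, where few genes moved. By the scanner software's log ratio Clnk was at 3.45 and 5.05 and Cd160 at 3.96 and 3.20. The closeness of their 2 ratios thus depends on the processing, and neither was well above background in WT. The genes closest to Fcer1g in the ratios of both arrays were Cd244a (3.42 and 3.84), Srsf12 (3.29 and 3.76) and Slc40a1 (3.56 and 3.34), at distances of 1.82, 1.94 and 2.28 in log2 units, so no tested gene lay near it. Cd244a encodes the receptor 2B4 of NK and CD8+ T cells, and Slc40a1 the iron exporter ferroportin. The genes closest to Hcst, the lowest member, were H4c4 (-0.88 and 0.31), Ndufa3 (-0.88 and 0.32) and H4c6 (-0.92 and 0.28), within 0.041 of it. Likeness over 2 arrays is a description only.

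The receptors known to pair with Fcer1g, Tyrobp or Hcst had 9 measured genes of 29 listed, of which 3 rose, none fell and 6 did not pass. Their median log2 ratio was 1.54, against 0.04 over all tested genes, but 4 of the 9, Cd300c2 among them, were well above background in WT on no array and were tested only through KO, a choice that can raise both the count and the median. Klrb1c, which encodes NK1.1 and pairs with Fcer1g, had ratios of 2.02 and 4.12 (limma adjusted p = 6.1e-07). Klrc2, the activating NKG2C chain that pairs with Tyrobp, was at 2.01 and 2.64 (limma adjusted p = 0.00096). Cd300c2, a myeloid receptor that pairs with Fcer1g, was at 2.68 and 1.41, at least 2.00-fold higher in KO (limma adjusted p = 0.0064). Klrk1, the NKG2D receptor that pairs with Hcst, was chosen for this role after its values were seen. It was at 1.26 and 1.82 and did not pass (limma adjusted p = 0.094). The other kept Klrk1 probe was at -0.14 and 0.66. Of the 25 listed receptors on the array, 13 were not well above background with any probe in any sample, among them the alpha chain of the IgE receptor, Fcer1a, and the myeloid receptors Trem1, Trem2 and Clec5a.

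Of 40 measured kinases, adaptors and effectors downstream of the ITAM (51 listed), none rose and none fell by limma's adjusted p, and the median log2 ratio was 0.11; 4 had an unadjusted p under 0.05. Lyn, a Src-family kinase of B and myeloid cells, was at 1.01 and 0.94, and Plcg2, the phospholipase used by B and NK cells, at 0.71 and 1.66; neither passed. The T cell counterparts of Fcer1g and Syk, named for their roles after their values were seen, did not pass either. By its brightest probe Cd247, the CD3 zeta chain, was at 0.46 on both arrays, and Zap70 was at 0.12 and 0.25. The other kept Cd247 probes changed sign between arrays, at -0.29 and 0.37 and at 0.36 and -0.16. Among 19 measured inhibitors and phosphatases of ITAM signalling (24 listed) none was called by limma, with a median of 0.14 and 2 unadjusted p-values under 0.05. The inhibitory receptor Pirb was at 2.20 and 0.89 and Pag1, an adaptor that recruits the kinase Csk, at 2.58 and 0.72.

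Other receptors of NK and CD8+ T cells and SLAM adaptors had 14 measured genes of 30 listed. Of these, 4 rose, none fell and 10 did not pass, with a median of 0.70. Among the 14, 3 (Cd244a and Klrc3 among them) were well above background in WT on no array and were tested only through KO. Those that rose were Cd244a, at least 6.73-fold higher in KO (limma adjusted p = 6.8e-10), the Ly49 gene Klra7 (1.93 and 2.37), the NKG2 gene Klrc3 (1.81 and 2.12, at least 1.94-fold higher) and Sh2d1a, the SLAM adaptor SAP (2.81 and 0.67). Probes for Klra and Klrc genes may also detect close paralogs. Of the ligands and their co-receptors, 12 of 27 were measured and none was called by limma (median 0.37; 1 unadjusted p under 0.05). Lgals3, galectin 3, was at 2.01 and 0.96, and B2m, the light chain of MHC class I, at 1.02 and 0.55. Tnfrsf14, the ligand of Cd160, was at -0.75 and -0.13, and the Sectm1a and Sectm1b genes, whose products include the known ligand of Cd7, were not well above background in any sample.

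**Figure D3:**
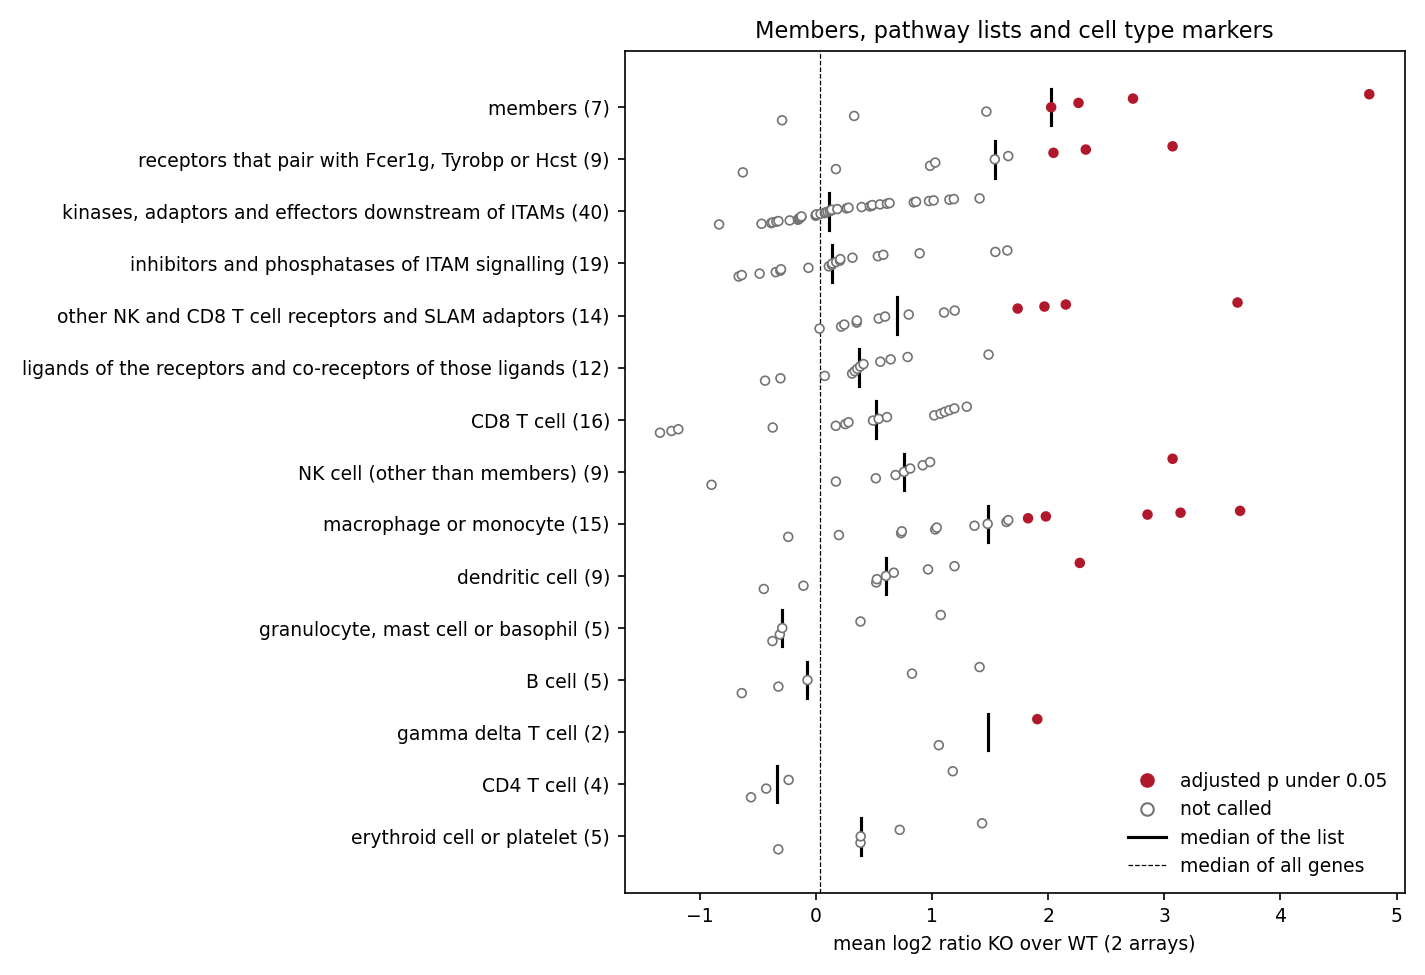
Mean log2 ratio of KO over WT for the measured genes of each list (rows, number measured in brackets); filled red circles passed the adjusted p threshold, open circles did not, black bars are list medians and the dashed line is the median of all genes. The members, the receptors that pair with the adaptors and the macrophage markers have medians of 2.03, 1.54 and 1.48, and the downstream kinases, adaptors and effectors one of 0.11. In that order, 3 of 7, 4 of 9, 9 of 15 and 2 of 40 genes were well above background in WT on no array. Such genes were tested only through KO, which can raise a median, and the lists were chosen with earlier results known.

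Markers were examined beside these results because Fcer1g, Tyrobp and Clnk are also expressed by NK and myeloid cells. All 16 markers of CD8+ T cells were measured in both genotypes, and none was called by limma while 9 had an unadjusted p under 0.05. Their median log2 ratio was 0.52 (0.72 on array 1 and -0.15 on array 2). Cd8b1 was at 1.11 and 0.93 and Ccr7 at -1.72 and -0.96. The other kept Cd8b1 probe was at -0.14 and 0.03, so the Cd8b1 ratio rests on 1 of its probes. Of 15 measured macrophage and monocyte markers (23 listed), 5 were called higher and none lower, with a median of 1.48, but 9 of the 15 were well above background in WT on no array and were tested only through KO, a choice that can raise both the count and the median. The called genes were Adgre1 (4.21 and 3.09, at least 3.86-fold higher), C1qc (3.16 and 3.12, at least 4.56-fold higher), Csf1r (2.82 and 2.89, at least 2.02-fold higher), Hmox1 (1.94 and 2.02) and Lyz2, the last at 4.03 on array 1 and -0.38 on array 2, so that its call rests on array 1. The summed normalised signal of the macrophage list was 89892 and 67638 in KO and 39897 and 63886 in WT. Among the macrophage markers not well above background in any sample were Cd68, Itgam, Spi1 and Ms4a7. Of 9 measured NK markers other than the members (14 listed), 1 rose, Klrb1c, and the median was 0.76; the summed signal was 157454 and 248500 in KO and 99974 and 139911 in WT. Klri2 was not well above background in any sample, Klre1 in KO on array 2 only and Itga2 in KO on array 1 only, each by 1 of 2 probes. Itgax was called among 9 measured dendritic markers (2.29 and 2.26) and Cd163l1 among the 2 measured gamma delta T cell markers (2.54 and 1.27). No marker of granulocytes, mast cells or basophils (5 measured), B cells (5), CD4 T cells (4) or erythroid cells and platelets (5) was called by limma, and 1 marker of each list had an unadjusted p under 0.05. The part of these other cell types in the members' ratios was not tested.

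**Figure D4:**
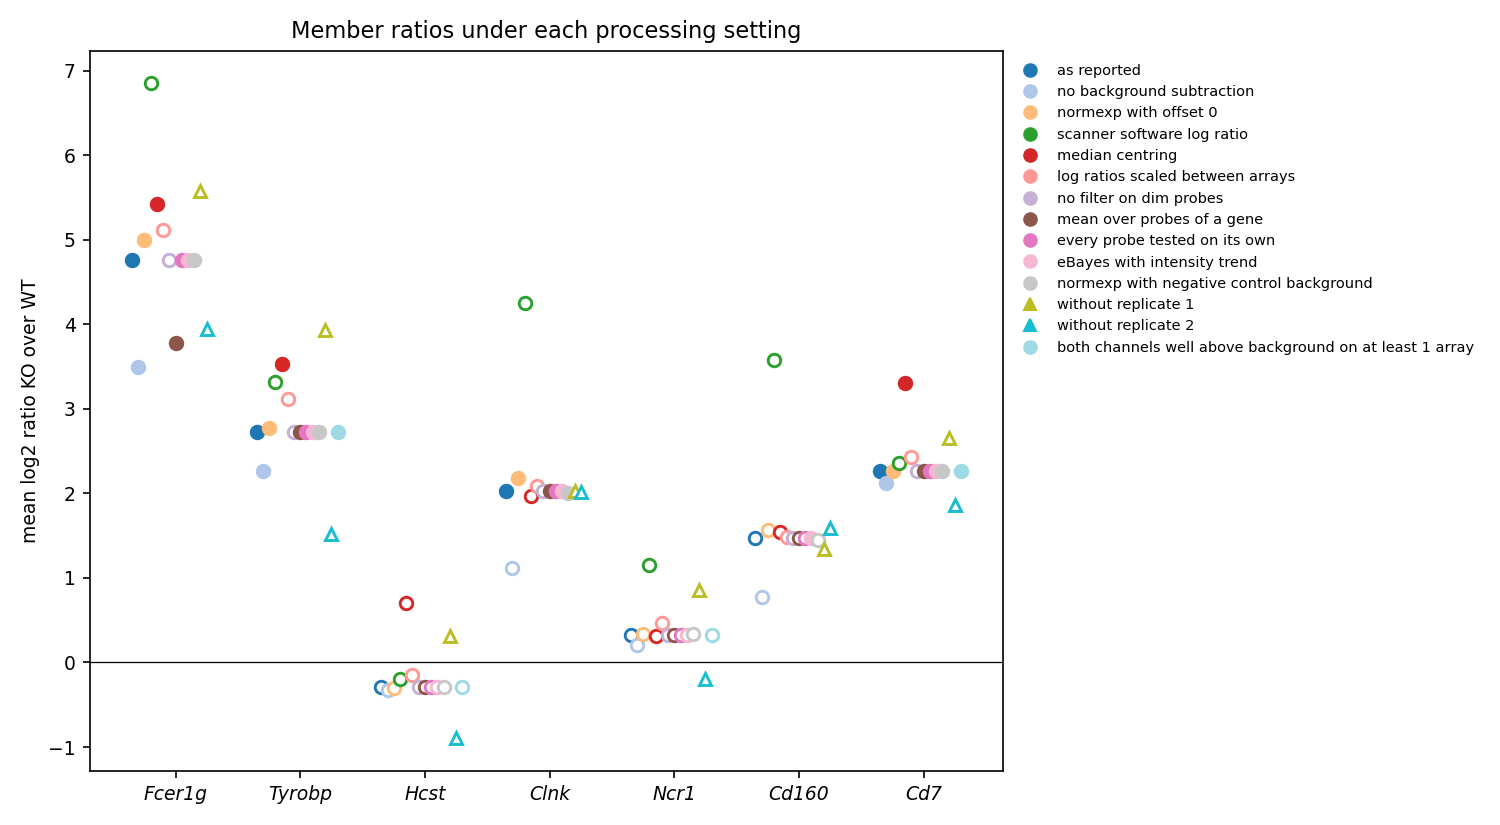
Mean log2 ratio of KO over WT of the 7 tested members under each processing setting; filled circles passed the adjusted p threshold, open circles did not, and open triangles are single arrays with no test. Fcer1g, Tyrobp, Cd7, Clnk and Cd160 stayed above 0 in each setting that tested them, while Hcst and Ncr1 crossed 0 between the arrays.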

How the data were processed

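RNA of sorted CD44low CD25low CD8+ T cells was extracted with Trizol and columns, linearly amplified and chemically labelled, per the labels' protocols. The deposited scanner files come from Agilent Feature Extraction, whose version the submitters' processing notes give as 9.5.3.1. Per the file headers, mean signals and local backgrounds are intensity values on a linear scale, not normalised. The deposited log10 ratios put red over green, which the deposited value table repeats to within 0.005 at all 45018 spots of each array; both of its columns have a median of 0.

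Ratios were computed with limma 3.58.1 in R 4.3.3 by normexp (offset 50) and loess, with control spots and outlier spots given weight 0. A probe was kept where 1 genotype was well above background on both arrays. The brightest kept probe stood for its gene (9281 genes). Of 41174 gene probes, 24375 were named by accession, 6301 by current and 2426 by older RefSeq symbols, and 8072 kept the files' name. Mean log2 ratios against 0 were tested two-sided by lmFit and eBayes, and p-values were adjusted (Benjamini-Hochberg) across all genes. The prior degrees of freedom were infinite, so the standard error was 0.50 for each gene and genes ranked by mean ratio; the smallest called was 1.68. With 2 arrays an exact sign-flip test cannot go below 0.5. Bounds ("at least") set the bright genotype against a floor, after loess and Aquantile normalisation, and are open to dye bias. On each array the floor is the lowest signal that passed the background test, or the dim probe's signal where higher. Each bound is a mean over the 2 arrays on the log2 scale, so a single array can lie below it. The fit was tested on simulated data. Both arrays were scanned together on 1 slide.

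Members, gene lists and tests were chosen with earlier results of these data known. Of each list, the called genes with the largest ratios are named (up to 4), or otherwise the 2 with the largest smaller ratio of like sign on both arrays.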

Additional observations from a re-analysis of the deposited data

How the results depend on the processing

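Over all genes 138 were called (115 higher and 23 lower in KO), and 4 members, 7 pathway genes and 8 markers were among them. With no background subtraction these counts were 32, 3, 3 and 5. With median centring they were 63 (62 higher and 1 lower), 3, 3 and 7. With both channels required well above background on at least 1 array, 4 members stayed testable and the counts were 99, 2, 4 and 5. With every probe tested on its own they were 29, 4, 4 and 5, and with an intensity trend 302, 5, 14 and 17. With scaling between arrays, the scanner software's log ratio or no filter on dim probes, limma called 0 genes in each group; unadjusted p-values under 0.05 numbered 905, 575 and 2478 genes. Offset 0, the mean over probes and a background from negative control spots, the last chosen after seeing the data, kept the members' count at 4. On single arrays, with no test, 263 to 2504 genes, 5 members, 16 to 25 pathway genes and 19 to 31 markers were past 2-fold in either direction.

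The Hcst mean turned to 0.70 with median centring. On single arrays Hcst was at -0.89 to 0.31 and Ncr1 at -0.20 to 0.86. The cause of these changes was not tested. Dim WT signals near the negative controls limit the size of the Fcer1g, Clnk and Cd160 ratios. Each array pairs a KO with a WT sample, so the test of the log2 ratios against 0 takes that pairing into account. The pairing is by array only, and no matching of the mice is implied. There is only 1 group of ratios.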
